A study of Mus musculus with 14 samples.

Results

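The unfolded protein response is followed here through 10 genes of the mouse colon epithelium: Hspa5, Hsp90b1, Dnajb9, Sdf2l1, Atf6, Ern1, Ern2, Xbp1, Atf4 and Ddit3. They were taken by name as the rows of the count table whose gene identifiers carry these symbols, and were chosen with earlier results of these data known. They are 10 of the 37680 genes in the table, and all 10 were among the 15127 genes tested, which had at least 10 counts in at least 3 libraries. Between 130 counts (Ddit3) and 20179 counts (Hspa5) stood behind each of their values.

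The unfolded protein response is the program by which a cell that secretes protein adjusts its endoplasmic reticulum (ER) to the load of unfolded protein there. Sensors in the ER membrane start it. IRE1 splices the mRNA of the transcription factor XBP1, PERK phosphorylates the initiation factor eIF2α and so favours translation of ATF4, and ATF6 moves to the Golgi, where it is cut into an active factor. These factors raise chaperones, folding enzymes and the machinery that degrades misfolded protein, and prolonged activity of the PERK arm raises CHOP, the product of Ddit3. In the gut this system is known for its part in mucin secretion, and the epithelium there carries an additional IRE1, encoded by Ern2. Gene counts show the amount of mRNA only, and neither XBP1 splicing nor eIF2α phosphorylation nor protein was measured.

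RNA was sequenced from colon epithelium that had been separated from the mesenchyme with EDTA, in 14 libraries: 4 of WT and 4 of Smad4 knockout (Smad4 KO) mice on water (labelled untreated), and 3 of WT and 3 of Smad4 KO mice after 3 d of 2.5% dextran sulfate sodium (DSS), which injures the colonic lining. In the Smad4 KO mice the floxed gene of Smad4, a transcription factor of TGF-β and BMP signalling, was deleted with tamoxifen and Villin-CreERT2, a Cre whose promoter restricts it to the intestinal epithelium. The study's methods give all mice an age of 8 to 14 wk and name the Cre transgene for mutants and controls alike, and tamoxifen in the WT mice is not given in the text used here. The study's methods speak of mice and the labels of replicates, so that p-values measure the spread between these libraries.

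Total counts ran from 12882827 to 26087231 per library, and levels are given as CPM, counts scaled to the size of the library after TMM normalization. Smad4 itself had 118 to 159 CPM in WT and 35.1 to 46.7 CPM in Smad4 KO replicates 2 to 4 on water, and 170 to 182 CPM against 40.3 to 43.9 CPM after DSS (log2 fold change -2.05, standard error (SE) 0.09, edgeR adjusted p = 1.5e-05). The library labelled Smad4 KO water replicate 1 went against its label with 158 CPM. It was kept under its label here. The study's RNA-seq figure legends give 3 replicates for Smad4 KO on water and do not say which. Mitochondrial transcripts held 30.6% and 32.8% of the counts in WT water replicates 3 and 4 and 21.4% in Smad4 KO water replicate 4, against 4.05% to 8.23% in the other 11 libraries. Library names began with different letters, of unstated meaning: the letter D began the names of every library after DSS but WT replicate 3, of WT water replicates 1 and 2, and of no Smad4 KO water library. Epithelial markers (Epcam, Cdh1, Vil1, Krt8, Krt18 and Cdx2) summed to 7909 to 13092 CPM, and goblet cell markers to between 12256 and 25642 CPM, in all 14 libraries. Of the plasma cell markers, which stand for another heavily secreting cell type, Tnfrsf17 had 3 counts or fewer in every library and the list summed to 1.42 to 20.8 CPM.

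The promoters of both major ER chaperones show the element through which ATF6 and XBP1 are known to act, and are printed for that reason, with the 250 bases before the start site on the strand of the gene (RefSeq, GRCm38.p6) in lower case and matches to the ER stress response element in capitals. The printed stretch of Hspa5 is chr2:34771840-34772089 on the plus strand and that of Hsp90b1 chr10:86705445-86705694 on the minus strand.
Hspa5: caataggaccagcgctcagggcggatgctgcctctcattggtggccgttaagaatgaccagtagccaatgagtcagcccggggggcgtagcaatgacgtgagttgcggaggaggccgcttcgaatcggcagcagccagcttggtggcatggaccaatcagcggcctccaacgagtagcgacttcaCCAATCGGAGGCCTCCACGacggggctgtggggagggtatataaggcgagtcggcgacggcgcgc
Hsp90b1: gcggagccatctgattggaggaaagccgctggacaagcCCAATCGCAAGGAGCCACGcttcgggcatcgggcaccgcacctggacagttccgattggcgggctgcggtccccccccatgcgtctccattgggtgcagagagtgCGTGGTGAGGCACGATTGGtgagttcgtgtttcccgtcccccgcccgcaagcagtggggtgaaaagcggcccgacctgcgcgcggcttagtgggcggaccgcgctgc

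The element was searched as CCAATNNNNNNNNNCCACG on both strands, in 300 bases from 250 before to 50 after the start. Only exact matches to these letters were counted, and near matches were not. Hspa5 held it once, from -65 to -47 relative to the start site, and Hsp90b1 held it at 2 places, from -212 to -194 on the plus strand and from -107 to -89 on the minus strand of the gene. Of all 32851 promoters in the table, 39 (0.119%) held it. Of 74 other genes of the pathway with a promoter in the table, 8 did, namely the lectin chaperones Calr and Canx, the chaperones or cofactors Creld2 and Dnajc3, the oxidoreductases Pdia6 and Ero1lb, and Derl3 and Syvn1 of ER-associated degradation. Neither the related element ATTGGNCCACG (0.0365% of promoters), nor TGACGTGG (0.676%), bound by XBP1 and ATF6, nor TGATGCAA (0.895%), a composite element of C/EBP and ATF family factors, was found in the windows of the 8 members that had one. Xbp1, Ern1, Atf4, Ddit3, Dnajb9 and Sdf2l1 had a promoter and none of these letter strings, and Ern2 and Atf6 had no entry.

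Compared per kilobase of exon, so that genes of different length can be set side by side, the mRNA of the major chaperones Hspa5 and Hsp90b1 was among the most abundant and that of the sensors Ern1 and Atf6 among the least. Hspa5, which encodes the chaperone BiP that also holds the sensors inactive, had the highest mean level in each group, with 145 CPM per kb in WT and 217 in Smad4 KO on water, and 217 and 260 after DSS. Next, in an order that differed between groups, came Hsp90b1, the ER form of Hsp90, with group means of 96.6 to 139 CPM per kb, Atf4 with 97.6 to 124 and Xbp1 with 72.9 to 110. Sdf2l1, a cofactor of BiP, had 43.8 to 59.6 CPM per kb and was the fifth in all 4 groups, and Ern2 was the sixth with 25.8 to 37.5. At the lower end, Dnajb9 had 14.4 to 20.3 CPM per kb, Ddit3 4.86 to 16.2, Atf6 5.24 to 8.24 and Ern1 3.97 to 5.81. Ddit3 was the seventh of the 10 in WT on water and the ninth or the last in the other 3 groups.

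**Figure D1:**
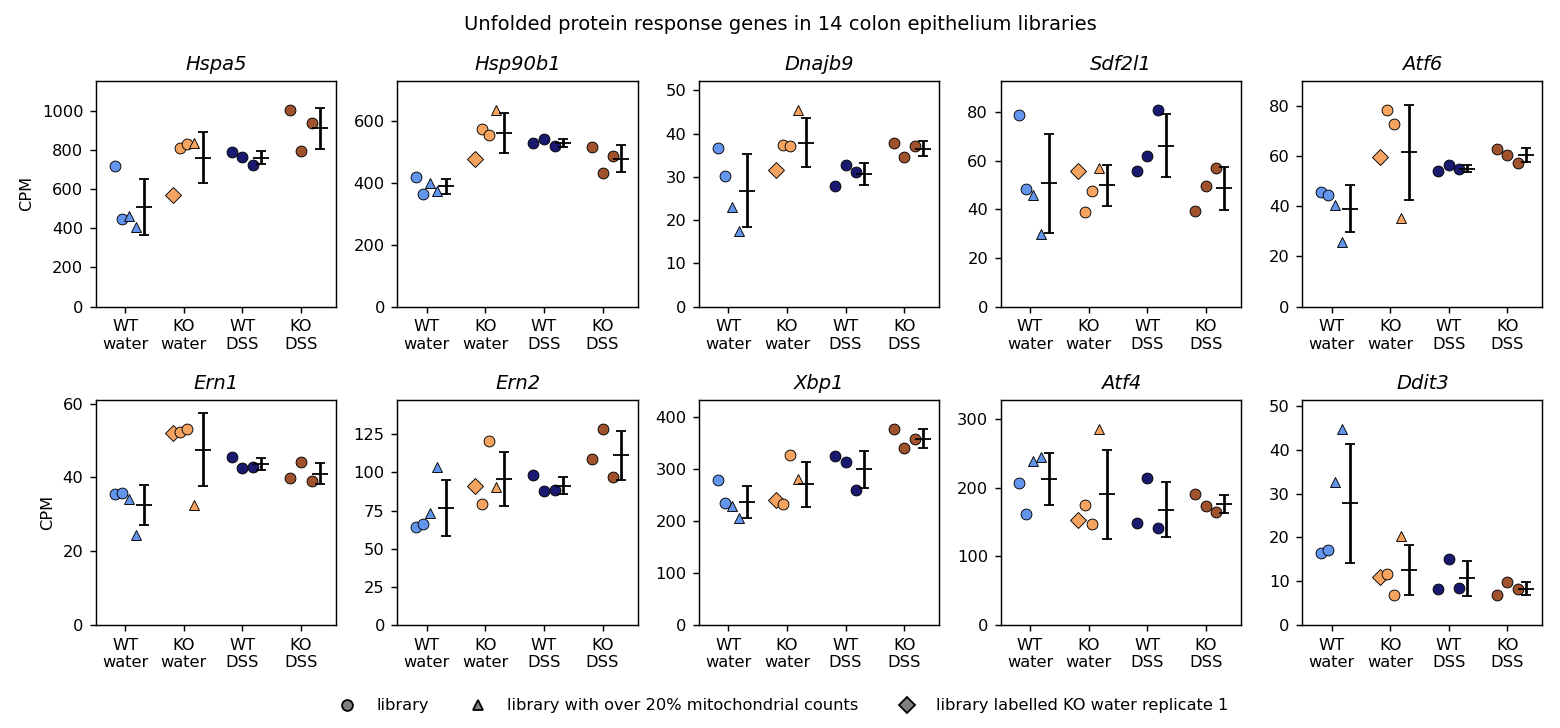
Level of each of the 10 genes (vertical axis, CPM, starting at 0) in every library of the 4 groups on the horizontal axis, with the group mean and SD as black bars. Triangles mark the 3 libraries with over 20% mitochondrial counts and the diamond the library labelled Smad4 KO water replicate 1. Ddit3 is highest in 2 of those triangles (32.7 and 44.8 CPM), and the WT water libraries of Hsp90b1 lie below every other library.

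Hspa5 (ENSMUSG00000026864, mm9 chromosome 2 from 34627490 to 34632051, plus strand) had 717, 450.4, 465 and 405 CPM in WT replicates 1 to 4 on water. Smad4 KO water replicates 1 to 4 had 569, 814, 830.0 and 836 CPM. After DSS, WT had 792, 766 and 725 CPM and Smad4 KO 1004, 797 and 937 CPM. Replicates 2 to 4 of Smad4 KO on water lay above all WT water libraries, replicate 1 (the one with Smad4 at the WT level) lay among them, and every library after DSS lay above every WT water library.

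Hsp90b1 (ENSMUSG00000020048, chromosome 10 from 86152954 to 86168254, minus strand) was separate by label on water, with 419, 366, 399.7 and 373 CPM in WT on water and 478, 576, 557 and 635 CPM in Smad4 KO on water, the lowest of these, 478 CPM, being the library labelled replicate 1, whose Smad4 was at the WT level. After DSS it had 529, 544 and 519 CPM in WT and 518, 433 and 488 CPM in Smad4 KO. All 4 WT water libraries lay below the other 10, and after DSS the Smad4 KO libraries lay below WT, by about 1 CPM between the nearest of them (518 and 519 CPM). Its exons share 415 bases with 1810014B01Rik on the opposite strand, which had at most 65 counts in a library where Hsp90b1 had at least 3493.

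Dnajb9 (ENSMUSG00000014905, chromosome 12 from 45306884 to 45311055), a J-domain partner of BiP and target of XBP1, had 36.8, 30.1, 23.0 and 17.4 CPM in WT and 31.6, 37.5, 37.2 and 45.4 CPM in Smad4 KO on water. After DSS the values were 27.9, 32.8 and 31.2 CPM in WT and 37.8, 34.6 and 37.1 CPM in Smad4 KO, which did not overlap. Sdf2l1 (ENSMUSG00000022769, chromosome 16 from 17130231 to 17132476) had 78.6, 48.2, 45.9 and 29.9 CPM in WT and 55.5, 39.0, 47.5 and 57.0 CPM in Smad4 KO on water. It had 55.9, 61.8 and 80.6 CPM in WT and 39.3, 49.4 and 56.9 CPM in Smad4 KO after DSS, with overlap in both comparisons.

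Among the sensors, Atf6 (ENSMUSG00000026663, chromosome 1 from 172634588 to 172797902) had 45.6, 44.7, 40.5 and 25.5 CPM in WT and 59.5, 78.2, 72.7 and 35.4 CPM in Smad4 KO on water. After DSS it had 54.0, 56.4 and 54.7 CPM in WT and 63.0, 60.6 and 57.4 CPM in Smad4 KO. The lowest value of each water group came from its replicate 4, a library with over 20% mitochondrial counts. Ern1 (ENSMUSG00000020715, chromosome 11 from 106255964 to 106349166), the IRE1 of most tissues, had 35.6, 35.8, 34.0 and 24.5 CPM in WT and 52.1, 52.2, 53.1 and 32.6 CPM in Smad4 KO on water. It had 45.6, 42.6 and 42.9 CPM in WT and 39.8, 44.2 and 38.9 CPM in Smad4 KO after DSS. Replicate 4 was again the lowest of each water group, and the other 3 libraries labelled Smad4 KO on water, among them replicate 1 with Smad4 at the WT level, lay above every other library.

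Ern2 (ENSMUSG00000030866, chromosome 7 from 129313407 to 129329730), the IRE1 of gut and airway epithelium, had 63.9, 66.0, 73.7 and 104 CPM in WT and 91.4, 79.3, 121 and 90.4 CPM in Smad4 KO on water. After DSS the levels were 98.1, 87.6 and 88.5 CPM in WT and 109, 129 and 96.7 CPM in Smad4 KO, and the groups overlapped in every comparison. Per kilobase, Ern2 mRNA exceeded Ern1 mRNA in all 14 libraries, by a ratio from 4.18 to 11.7. The ratio was on water 6.90 ± 3.20 (SD, n = 4) in WT, with 5.72 ± 1.54 (SD, n = 4) for Smad4 KO, and after DSS 5.75 ± 0.147 (SD, n = 3), with 7.45 ± 0.584 (SD, n = 3) for Smad4 KO. Goblet cell markers, which mark the cells in which Ern2 is best known, summed to 12256 to 12763 CPM in Smad4 KO and 16414 to 17388 CPM in WT after DSS, opposite to the order of the Ern2 means. In bulk tissue, fewer cells of a type and less RNA per cell cannot be told apart.

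Of the transcription factors, Xbp1 (ENSMUSG00000020484, chromosome 11 from 5420662 to 5425896) had 279, 234, 229 and 205 CPM in WT and 241, 233, 328 and 281 CPM in Smad4 KO on water. It had 325, 314 and 259 CPM in WT and 377, 340.4 and 358 CPM in Smad4 KO after DSS, and the 3 Smad4 KO libraries after DSS were the highest of all 14. Atf4 (ENSMUSG00000042406, chromosome 15 from 80085614 to 80087970) had 207, 162, 239.7 and 245 CPM in WT and 153, 176, 148 and 286 CPM in Smad4 KO on water. After DSS it had 149, 214 and 141 CPM in WT and 191, 174 and 165 CPM in Smad4 KO, and no pair of groups was separate. Ddit3 (ENSMUSG00000025408, chromosome 10 from 126727830 to 126733344) had 16.5, 17.1, 32.7 and 44.8 CPM in WT and 11.0, 11.6, 6.9 and 20.4 CPM in Smad4 KO on water. It had 8.3, 15.2 and 8.4 CPM in WT and 6.8, 9.9 and 8.3 CPM in Smad4 KO after DSS. The 4 WT water libraries were above all 6 libraries after DSS, and the 3 highest values of Ddit3 came from the 3 libraries with over 20% mitochondrial counts. Ddit3 shares 68 exon bases with Mars on the opposite strand, which had up to 1595 counts in a library, and without a stated strand setting reads from that stretch cannot be told apart.

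On water, Smad4 KO epithelium had higher mean levels than WT of both ER chaperones and of the sensors Ern1 and Atf6, by factors of about 1.4 to 1.6, and a lower level of Ddit3, but no member passed the threshold of 0.05. Hsp90b1 differed by a log2 fold change of 0.53 (SE 0.16, edgeR adjusted p = 0.16) and was the only member without overlap between the groups. Non-overlap of this kind was seen for 5.18% of all tested genes toward higher and 5.2% toward lower levels. Hspa5 had a log2 fold change of 0.58 (SE 0.22, edgeR adjusted p = 0.19), Ern1 of 0.55 (SE 0.20), Atf6 of 0.65 (SE 0.26) and Dnajb9 of 0.49 (SE 0.23). Ddit3 had -1.15 (SE 0.38, edgeR adjusted p = 0.16). Values near 0 were found for Xbp1 (0.19, SE 0.17), Atf4 (-0.16, SE 0.23) and Sdf2l1 (-0.03, SE 0.26), and Ern2 had 0.32 (SE 0.19).

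With the quasi-likelihood test of edgeR 0 of 10 members were called on water, where 1 of all tested genes (0.00661%) was, and 5 had an unadjusted p below 0.05, namely Hsp90b1, Hspa5, Ern1, Atf6 and Ddit3, against 20.4% of all tested genes. DESeq2 called Hsp90b1 (adjusted p = 0.020) and Ddit3 (adjusted p = 0.043), against 5.08% of all tested genes. With all 14 libraries in 1 edgeR model, Hsp90b1 and Ern1 were called (8.44% of all tested genes were). Without Smad4 KO water replicate 4, the library of that group with many mitochondrial counts, Ern1 (0.69), Ddit3 (-1.49) and Atf6 (0.84) were called by edgeR, each with an adjusted p of 0.033, where 11.5% of all tested genes were. Without the library labelled replicate 1, Hspa5 had a log2 fold change of 0.70 and Hsp90b1 of 0.60, with 0 members and 0.0859% of all tested genes called.

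Some markers of other cell types differed between the labels on water as well. Colonocyte markers summed to 4627 to 5430 CPM in WT and 3139 to 4126 CPM in Smad4 KO, without overlap, with a median log2 fold change of -0.40 over 8 genes. Goblet cell markers had a median of -0.55 over 10 genes, with sums of 13221 to 25642 CPM in WT and 13327 to 16502 CPM in Smad4 KO, which overlapped. Fibroblast markers summed to 0.895 to 4.06 CPM in WT and 2.98 to 24.9 CPM in Smad4 KO, which overlapped. The 24.9 CPM came from Smad4 KO replicate 4, with 21.4% mitochondrial counts. Smad4 KO replicate 1, whose Smad4 was at the WT level, had 11.0 CPM. The median log2 fold change of the fibroblast markers was 2.66 over the 4 tested genes of a list of 7. Of these lists, 0 genes were called by edgeR. The part of these markers in the levels of the 10 genes on water was not tested.

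The mitochondrial share moved with several members on water. With it as a covariate, edgeR called 0 members and 1 of all tested genes. There 4 members had an unadjusted p below 0.05 in place of 5, as did 1822 of 15127 tested genes in place of 3083. Its part in the differences was not tested beyond this and the following values. Among libraries with under 20% mitochondrial counts (2 of WT and 3 of Smad4 KO), mean Ddit3 was 16.8 against 9.84 CPM, for a log2 fold change of -0.77 in place of -1.15, and Dnajb9 had 0.09 in place of 0.49. Hsp90b1 (0.46), Ern1 (0.56) and Atf6 (0.64) had values close to those over all 8 libraries, and Hspa5 had 0.34. None of these 6 had an edgeR adjusted p below 0.05 there, the lowest being 0.11 for Ern1 and Atf6, and 0.688% of all tested genes did.

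**Figure D2:**
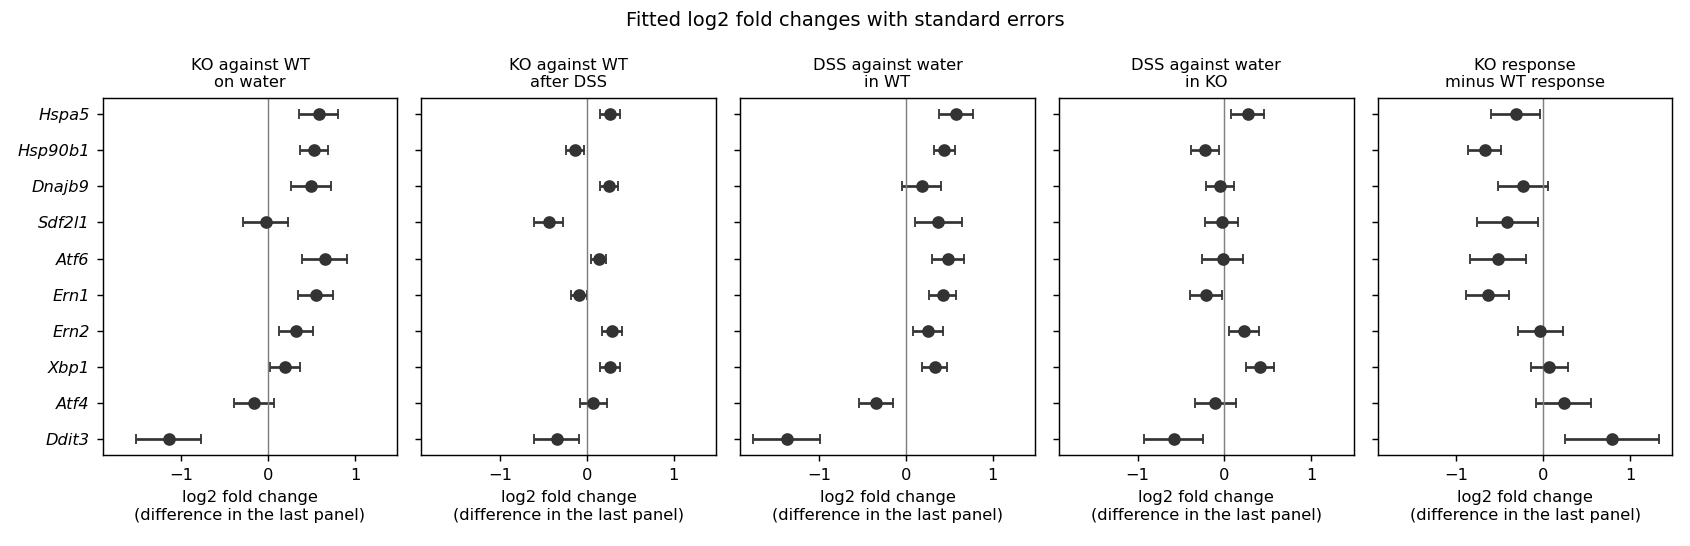
Fitted log2 fold change (points) with its standard error (bars) for each gene in the 4 comparisons, and in the last panel the response to DSS in Smad4 KO minus that in WT. On water and in the WT response to DSS, Hspa5, Hsp90b1, Atf6 and Ern1 lie to the right of 0 and Ddit3 to the left. In the response of Smad4 KO, the values run from -0.59 (Ddit3) to 0.41 (Xbp1).

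After 3 d of DSS, Smad4 KO had Hspa5, Xbp1, Dnajb9 and Atf6 at levels above WT in every library, by factors of 1.10 to 1.20, and Hsp90b1 below WT in every library, by a factor of 0.907. Thus 4 of 10 members were separate and higher, against 10.3% of all tested genes, and 1 was separate and lower, against 11.4%. The log2 fold changes were 0.27 (SE 0.11) for Hspa5, 0.26 (SE 0.11) for Xbp1, 0.26 (SE 0.10) for Dnajb9 and 0.14 (SE 0.09) for Atf6. Hsp90b1 had -0.14 (SE 0.10), and from -0.20 without Smad4 KO DSS replicate 1 to -0.071 without Smad4 KO DSS replicate 2. Ern2 had 0.29 (SE 0.12) and Sdf2l1 -0.44 (SE 0.16), the farthest from 0 of the 10. Ddit3 had -0.35 (SE 0.26), Ern1 -0.09 (SE 0.09) and Atf4 0.07 (SE 0.16).

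None of these passed the threshold: 0 of 10 members were called by edgeR, against 0.747% of all tested genes, and 0 by DESeq2, against 3.3%. The lowest edgeR adjusted p was 0.25, for Sdf2l1. At an unadjusted p below 0.05 were Sdf2l1, Ern2, Dnajb9, Xbp1 and Hspa5, 5 of 10 against 15.4% of all tested genes. Within the 5 libraries whose names begin with D (2 of WT and 3 of Smad4 KO), 0 of 10 members had an unadjusted p below 0.05, against 12.5% of all tested genes, and their median log2 fold change was 0.05 in place of 0.11. Colonocyte markers were called lower in Smad4 KO after DSS for 4 of 8 genes, goblet cell markers lower for 2 of 10 and fibroblast markers higher for 3 of 4 tested genes, the latter with sums of 0.368 to 1.98 CPM in WT and 7.20 to 13.1 CPM in Smad4 KO. The fibroblast list held 7 genes, of which Lum and Dpt had 3 counts or fewer in every library. The study reports barely detectable Pdgfra in this RNA, reads it as a lack of pericryptal fibroblast contamination, and describes the raised collagen transcripts as epithelial. The part of these markers in the levels of the 10 genes was not tested.

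In WT epithelium, the libraries after DSS had higher levels than those on water of both chaperones and of Atf6 and Ern1, and less Ddit3, all without overlap. These were 4 members separate and higher (12.8% of all tested genes were) and 1 separate and lower (11.6% were). Hspa5 went from 509 ± 141 (SD, n = 4) to 761 ± 33.6 CPM (SD, n = 3), a log2 fold change of 0.58 (SE 0.20, edgeR adjusted p = 0.13). Hsp90b1 went from 389 ± 24.6 (SD, n = 4) to 530.3 ± 12.5 CPM (SD, n = 3), a log2 fold change of 0.45 (SE 0.12, edgeR adjusted p = 0.097). Ddit3 went from 27.8 ± 13.6 (SD, n = 4) to 10.6 ± 3.92 CPM (SD, n = 3), a log2 fold change of -1.37 (SE 0.38, edgeR adjusted p = 0.098). Atf6 had 0.49 (SE 0.19), Ern1 0.42 (SE 0.15) and Xbp1 0.34 (SE 0.14), while Sdf2l1 (0.38, SE 0.27), Ern2 (0.25, SE 0.17), Dnajb9 (0.18, SE 0.22) and Atf4 (-0.34, SE 0.19) were within 2 SE of 0.

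By edgeR 0 of 10 members were called in this comparison, as were 0.0% of all tested genes. At an unadjusted p below 0.05 were 6 of 10 members (Hsp90b1, Ddit3, Hspa5, Ern1, Atf6 and Xbp1), against 24.2% of all tested genes. DESeq2 called Hsp90b1 (adjusted p = 0.0013), Ddit3 (adjusted p = 0.0068) and Hspa5 (adjusted p = 0.037), where it called 11.7% of all tested genes. No library after DSS exceeded 6.87% mitochondrial counts, whereas 2 of the 4 WT water libraries exceeded 30%. Without those 2, the log2 fold change of Hsp90b1 was 0.44, against 0.45 over all 7 libraries, that of Hspa5 0.38 and that of Ddit3 -0.66, with 0 members and 1 of all tested genes called by edgeR. Dnajb9 had -0.13 there. Without those 2, the WT water mean of Atf6 was 45.1 CPM in place of 39.1, against 55.0 CPM after DSS. That of Ern1 was 35.7 CPM in place of 32.5, against 43.7 CPM after DSS. With the mitochondrial share as a covariate over all 7 libraries, 2 members had an unadjusted p below 0.05 in place of 6. Of the 15127 tested genes 1789 did, in place of 3662, and edgeR called 0 members and 0 genes. Within the 4 libraries of this comparison whose names begin with D, Hsp90b1 had 0.45, Hspa5 0.42, Ern2 0.52 and Ddit3 -0.52, again with 0 members called, against 0.0595% of all tested genes.

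In Smad4 KO epithelium, the libraries on water and after DSS overlapped for all of the 10 genes but Xbp1. Xbp1 had 271 ± 43.3 (SD, n = 4) CPM on water and 358 ± 18.3 CPM (SD, n = 3) after DSS, without overlap, a log2 fold change of 0.41 (SE 0.16, edgeR adjusted p = 0.76). It was the 1 member separate and higher, against 4.6% of all tested genes, and 0 were separate and lower, against 4.28%. Hspa5 had 0.27 (SE 0.19), Hsp90b1 -0.22 (SE 0.16), Ern1 -0.21 (SE 0.19), Atf6 -0.02 (SE 0.23), Dnajb9 -0.05 (SE 0.16) and Ddit3 -0.59 (SE 0.34). Ern2 had 0.23 (SE 0.17), Atf4 -0.11 (SE 0.24) and Sdf2l1 -0.03 (SE 0.19). With edgeR 0 of 10 members were called (0.00661% of all tested genes were) and 1, Xbp1, had an unadjusted p below 0.05 (6.37% of all tested genes did). DESeq2 called 0 of 10 (0.469% of all tested genes). The water group held replicate 1, with Smad4 at the WT level, and replicate 4, with 21.4% mitochondrial counts. At under 20% mitochondrial counts, which left out replicate 4, Ern1 had -0.35, Atf6 -0.21 and Ddit3 -0.24. With replicate 1 also left out, Ern1 had -0.36, Atf6 -0.32 and Ddit3 -0.15. In these 2 settings edgeR called 0 members, and 1 and 3 of all tested genes. All Smad4 KO libraries after DSS had names beginning with D and none of those on water did, so that the treatment and the name prefix cannot be told apart in this genotype.

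The difference between the responses was tested directly, as the response to DSS in Smad4 KO minus that in WT, over all 14 libraries. Hsp90b1 had the most distant value from 0 relative to its error, -0.67 (SE 0.19, edgeR unadjusted p = 0.0028, adjusted p = 0.64), beside responses of 0.45 in WT and -0.22 in Smad4 KO. Ern1 had -0.64 (SE 0.25), Atf6 -0.52 (SE 0.32), Sdf2l1 -0.41 (SE 0.35), Hspa5 -0.32 (SE 0.28) and Dnajb9 -0.24 (SE 0.29). Ddit3 had 0.79 (SE 0.54) and Atf4 0.23 (SE 0.32), and Xbp1 (0.07, SE 0.22) and Ern2 (-0.03, SE 0.25) were near 0. By edgeR 0 of 10 members were called (0.00661% of all tested genes were) and 2, Hsp90b1 and Ern1, had an unadjusted p below 0.05 (7.5% of all tested genes did). DESeq2 called 0 of 10 (0.0529% of all tested genes).

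Among the 10 libraries left when those with over 20% mitochondrial counts and the library labelled Smad4 KO water replicate 1 were both removed, a choice made after the data were seen, edgeR called the difference of the responses for Hsp90b1 (-0.68, adjusted p = 0.048), Ern1 (-0.66, adjusted p = 0.033) and Atf6 (-0.61, adjusted p = 0.036). There 5.13% of all tested genes were called, and 4 of those 10 libraries carried the water groups. With the high-mitochondrial libraries removed and replicate 1 kept, the values were -0.60, -0.65 and -0.50 and 0 members were called, against 0.198% of all tested genes. The comparisons share groups, so that a high or low water group enters several of them: the WT water libraries stand in the comparison with Smad4 KO on water, in the WT response and in this difference.

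**Figure D3:**
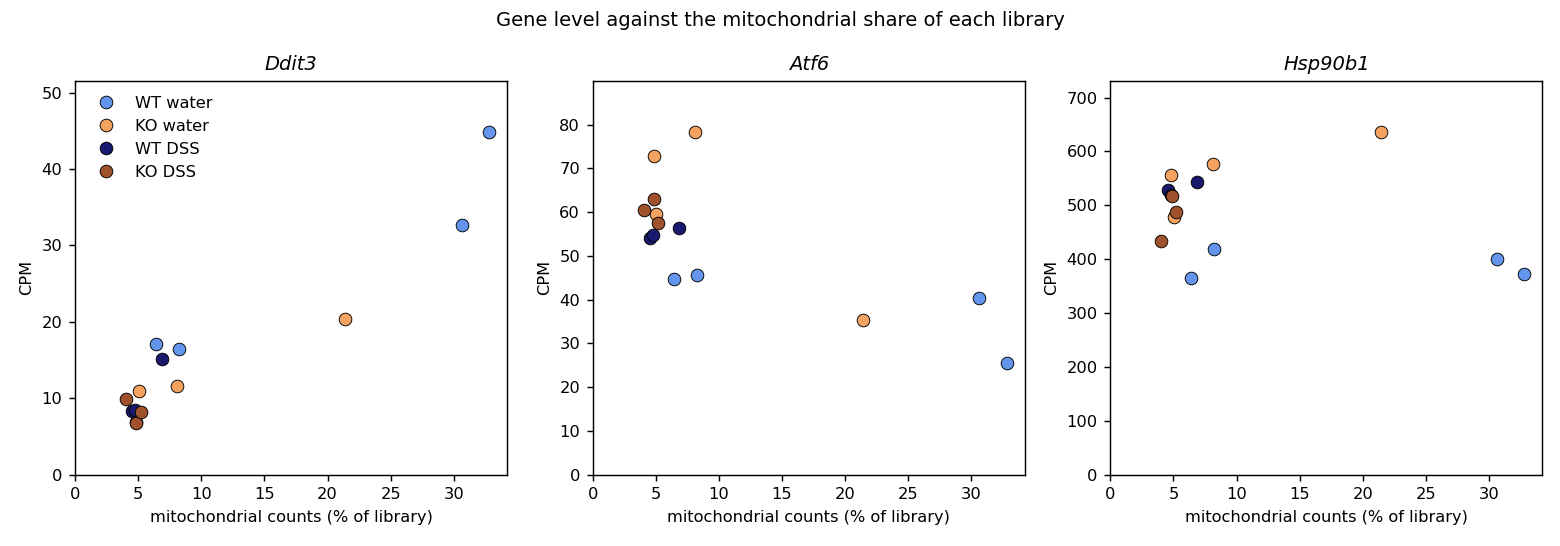
Level of Ddit3, Atf6 and Hsp90b1 (vertical axes, CPM) against the share of counts on mitochondrial genes (horizontal axes, percent of the library) in the 14 libraries, coloured by group. Ddit3 is highest and Atf6 lowest in the libraries above 20%, whereas Hsp90b1 separates the WT water libraries from the rest at any share.

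Over the 14 libraries, which include all 4 groups, the members fell into sets that varied together. As a description, Pearson's r of log2 CPM was 0.84 for Hspa5 and Xbp1, 0.80 for Hspa5 and Dnajb9 and 0.77 for Hspa5 and Hsp90b1. Ern1 and Atf6 had the highest r of the 45 pairs, 0.93. Atf4 and Ddit3 had 0.76, and Ddit3 had a negative r with the other 8 members, down to -0.85 with Atf6. The mitochondrial share, which these libraries have in common, had an r of 0.90 with Ddit3, 0.78 with Atf4, -0.81 with Atf6, -0.77 with Ern1 and -0.62 with Hspa5, but -0.34 with Hsp90b1 and -0.16 with Ern2. How much of the likeness between members comes with that share was not tested.

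The genes most like Hspa5 over the 14 libraries were Serp1 (r = 0.96), Galnt3 (0.95), Hyou1 (0.94), Ssr3 (0.92) and Tfdp1 (0.92). Of these, Hyou1 is an ER chaperone, and Serp1 and Ssr3 belong to the translocon at which proteins enter the ER. For Ern2 they were Efcab5 (0.89), Hspg2 (0.87), Capn8 (0.87), Rel (0.85) and Osmr (0.84). The genes most like Ddit3, Lrrc51, Rpl14, Zfp579, Akap8l and Spef1, had r from 0.97 to 0.98. As the highest values picked from all tested genes, they cannot be weighed against the 0.90 of Ddit3 with the mitochondrial share.

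The wider pathway was covered by 88 further genes in 6 roles, all of which were tested. On water, 25 of the 88 had an unadjusted p below 0.05 toward higher levels in Smad4 KO (10.8% of all tested genes did) and 1 toward lower (9.59% did), with 0 called by edgeR and 13 by DESeq2, all 13 higher, where DESeq2 called 2.6% of all tested genes higher and 2.48% lower. With the mitochondrial share as a covariate edgeR called 0 of the 88 (1 of all tested genes), and at under 20% mitochondrial counts 0 (0.688%). Without replicate 1 there too, 4 were called higher and 1 lower (468 and 475 of all tested genes). With all 14 libraries in 1 model, 15 were called higher and 0 lower (731 and 545 of all tested genes). The median log2 fold change in the main fit was 0.12, against -0.01 over all tested genes and 0.40 over the 10 members. Chaperones and co-chaperones had 5 of 12 genes at an unadjusted p below 0.05 and a median of 0.19, oxidative folding 3 of 12 and 0.27, the PERK and ATF4 arm 7 of 23 and 0.18, and translocon and traffic 5 of 15 higher, 1 lower and 0.03. ER-associated degradation had 2 of 15 and 0.04. Examples were Ero1l, the oxidase that recharges protein disulfide isomerases, with 41.0 ± 4.11 (SD, n = 4) against 75.8 ± 20.1 CPM (SD, n = 4) and a log2 fold change of 0.89 (SE 0.20), and the cystine transporter Slc7a11, a target of ATF4, with 1.28 (SE 0.33). Dnajc10, an ER reductase, had 0.64 (SE 0.18), Edem3, a mannosidase of ER-associated degradation, 0.83 (SE 0.24), Sec24d, a coat protein of ER export, 0.88 (SE 0.27), and Mbtps2, the protease that releases ATF6, 0.70 (SE 0.20), with edgeR adjusted p from 0.15 to 0.16 for all 6.

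After DSS, 14 of the 88 genes had an unadjusted p below 0.05 toward higher (7.07% of all tested genes did) and 6 toward lower levels in Smad4 KO (8.34% did), with a median of 0.03 against 0.00 over all tested genes, and DESeq2 called 4 higher (1.32% of all tested genes) and 2 lower (1.98%). Creb3l2, a membrane-bound transcription factor related to ATF6, was the 1 gene called by edgeR (0.331% of all tested genes were called higher), with 12.1 ± 0.417 CPM (SD, n = 3) in WT, 20.1 ± 2.92 CPM (SD, n = 3) in Smad4 KO and a log2 fold change of 0.73 (SE 0.14, adjusted p = 0.048). Its call was lost with all 14 libraries in 1 model or 13 of them without Smad4 KO water replicate 1, and with the mitochondrial share, the name prefix or the replicate number as a term. It was also lost when any 1 library was left out other than Smad4 KO DSS replicate 1. Leaving out WT DSS replicate 3 is the same fit as prefix D alone. The PERK and ATF4 arm had 7 of 23 genes at an unadjusted p below 0.05 and higher, with Slc7a11 at 0.80 (SE 0.34), while ER-associated degradation had a median of -0.11 and Vcp, the ATPase that extracts its substrates, -0.56 (SE 0.19). Dnajc10 had 0.37 (SE 0.12) and Sec61g, a subunit of the translocon channel, 0.37 (SE 0.24).

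In the WT response to DSS, 24 of 88 genes had an unadjusted p below 0.05 and were higher (11.5% of all tested genes were) and 2 lower (12.7% were), with a median of 0.18 against -0.01 and 0 called by edgeR and 18 by DESeq2, 17 of them higher (5.47% of all tested genes were) and 1 lower (6.27% were). With the mitochondrial share as a covariate edgeR called 0 of the 88 (0 of all tested genes), and at under 20% mitochondrial counts 0 (1 of all tested genes). Chaperones had the highest median, 0.33, with 6 of 12 at an unadjusted p below 0.05, among them Hyou1 with 106 ± 43.9 (SD, n = 4) on water and 193 ± 7.69 CPM (SD, n = 3) after DSS, a log2 fold change of 0.86 (SE 0.26, edgeR adjusted p = 0.11). Sec24d had 1.06 (SE 0.22, edgeR adjusted p = 0.088), Eif2ak3, which encodes PERK, 0.74 (SE 0.23), Pdia4, a disulfide isomerase, 0.48 (SE 0.17), Edem3 0.68 (SE 0.20) and Creb3l1 -0.39 (SE 0.15). In Smad4 KO, 9 of 88 were higher (3.05% of all tested genes) and 2 lower (3.32%) at an unadjusted p below 0.05, with a median of 0.03 and 0 called by edgeR and 1, higher, by DESeq2, which called 0.278% of all tested genes higher and 0.192% lower. Calreticulin (Calr) had 0.40 (SE 0.15), Sec61g 0.84 (SE 0.27) and Phgdh, the first enzyme of serine synthesis, 0.74 (SE 0.23) there. Ubxn4, an adaptor of Vcp at the ER, had -0.26 (SE 0.15) and Erp29, a chaperone-like ER protein, -0.26 (SE 0.26).

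The difference of the responses had 12 of 88 genes at an unadjusted p below 0.05 toward a lower response in Smad4 KO (4.03% of all tested genes) and 1 toward a higher one (3.48%), with a median of -0.11 against -0.01 over all tested genes and 0 called by edgeR or DESeq2. Sel1l, the scaffold of the main ubiquitin ligase of ER-associated degradation, had -0.72 (SE 0.19), Eif2ak3 -0.72 (SE 0.31), Canx -0.56 (SE 0.23) and Pdia3 -0.55 (SE 0.22), with edgeR adjusted p of 0.64 for all 4, and Mbtps2 had -0.46 (SE 0.23). The 1 gene in the other direction was Sec61g with 0.83 (SE 0.33).

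**Figure D4:**
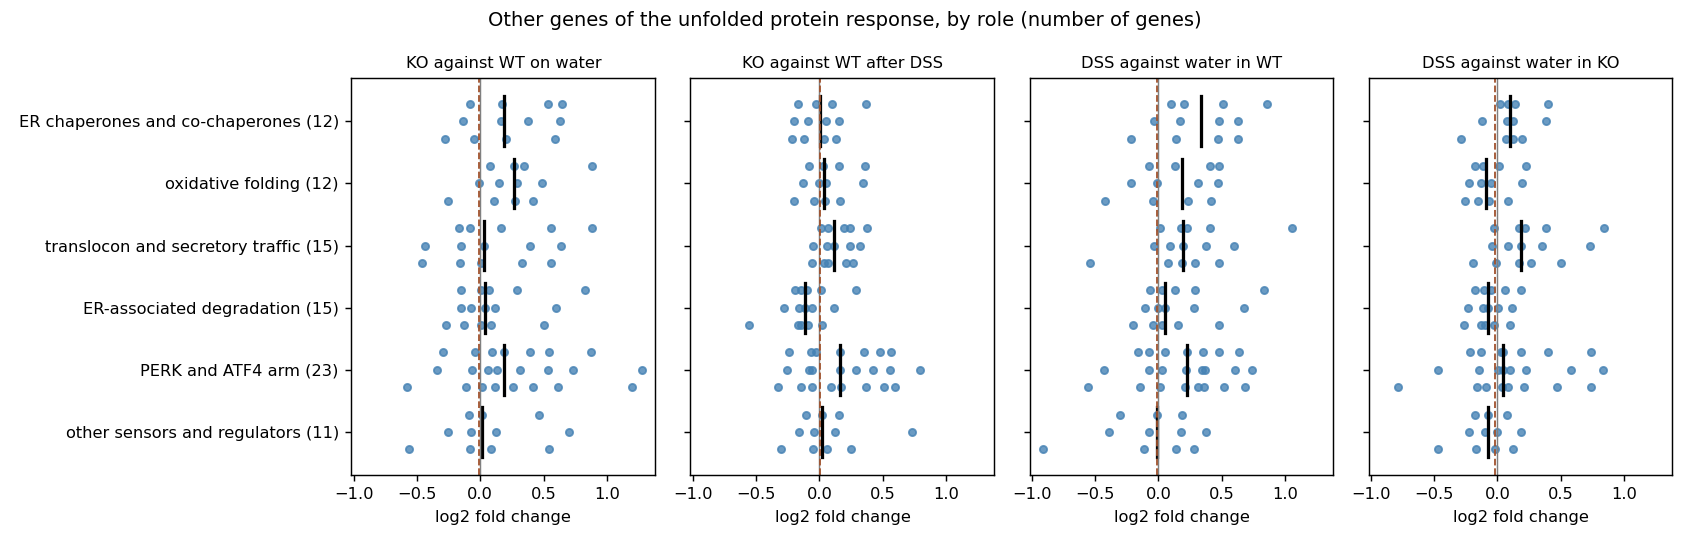
Fitted log2 fold change of the 88 other genes of the pathway (points, spread vertically for legibility) in 6 roles and 4 comparisons, with the median of each role as a black bar and the median of all tested genes as a dashed line. The median of the chaperones is 0.19 on water and 0.33 in the WT response to DSS, and 0.00 and 0.10 in the other 2 comparisons.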

How the data were processed

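RNA-seq of EDTA-separated mouse colon epithelium was analysed in 14 libraries, grouped by their deposited labels. According to the submitters' processing notes, poly(A) libraries were aligned to mm9 with HISAT2 and counted with featureCounts, and what the authors deposited are raw counts of reads for each gene. The strand setting is not given in the sources used here. Positions and exon lengths come from GENCODE mouse release M1, and promoters from RefSeq (GRCm38.p6).

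The 15127 genes that reached 10 counts in 3 or more libraries entered two-sided quasi-likelihood tests of edgeR 4.0.16 (TMM normalization, R 4.3.3), with only the 2 groups compared in the fit and all 14 libraries for the difference of the responses. P-values were adjusted over all tested genes after Benjamini and Hochberg, and a call means an adjusted p below 0.05. DESeq2 1.42.0, another normalization, no filter, blocks, covariates and left-out libraries served as alternatives, and 3 more (libraries with under 20% mitochondrial counts, the same without Smad4 KO water replicate 1, and names beginning with D) were added after the data were seen. Correlations used log2 (CPM + 0.5). The code was tested on simulated data.

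The 10 genes and all lists were chosen with earlier results of these data known. The text names all 10, Smad4, and, for each comparison and role of the wider list, genes called by edgeR or else the gene with the largest absolute log2 fold change at a mean of at least 50 normalized counts. The other genes with an ER stress response element were named after the search.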

Additional observations from a re-analysis of the deposited data

Results flagged for a closer look

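In 44 groups of 4 libraries tested (the 10 genes, Smad4, the 10 marker sums and the mitochondrial share, in each water group), 7 values stood far from the other 3 of their group by Dixon's criterion, and chance flags about 1 in 20 groups. Hspa5 had 569 CPM in the library labelled Smad4 KO water replicate 1, against 814 to 836 CPM in replicates 2 to 4, and the same library had Smad4 at 158 CPM, against 35.1 to 46.7 CPM. Ern1 had 24.5 CPM in WT water replicate 4, against 34.0 to 35.8 CPM in the other 3, and 32.6 CPM in Smad4 KO water replicate 4, against 52.1 to 53.1 CPM. These 2 replicates 4 also stood apart in markers of other cells: plasma cell markers summed to 11.2 CPM in WT water replicate 4, against 5.23 to 6.14 CPM, and to 20.8 CPM in Smad4 KO water replicate 4, against 2.38 to 5.30 CPM, where lymphoid markers summed to 27.5 CPM, against 12.8 to 14.6 CPM. They had 32.8% and 21.4% mitochondrial counts, and their names, alone among the libraries, began with MP. WT water replicate 3, with 30.6% mitochondrial counts, had Ern1 at 34.0 CPM. The part of the name prefix, the mitochondrial share or the other cells in these low values of Ern1 was not tested.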

How the results depend on the processing

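Of the tests of single genes under the alternatives, 814 kept their direction and side of the threshold, 18 passed it anew and 48 changed direction. Some alternatives are the same fit and are counted under each name. After DSS, prefix D alone is the fit without WT DSS replicate 3. In Smad4 KO, under 20% mitochondrial counts is the fit without water replicate 4. On water, where 0 members and 1 gene were called, DESeq2 called 2 and 768, all 14 libraries in 1 model 2 and 1276, the same without Smad4 KO water replicate 1 2 and 1151, the name prefix as a block 1 (Ddit3, -1.36) and 296, libraries with under 20% mitochondrial counts 0 and 104, the same without replicate 1 1 (Atf6, 0.75) and 943, no filter 0 and 55, and leaving out single libraries 0 to 3 and 1 to 1740. The 3 and 1740 came without Smad4 KO water replicate 4. After DSS, where 0 members were called in any setting, 113 genes became 499 with DESeq2, 2 with all 14 libraries in 1 model, 8 in that model without replicate 1, 60 with the mitochondrial share as a covariate, 42 with the prefix as a block or with prefix D alone, 345 with no filter, and 27 to 96 with a library left out. In WT, 0 members and 0 genes became 3 and 1777 with DESeq2, 1 (Ddit3, -1.35) and 457 with no filter, and 0 members and 1 gene at under 20% mitochondrial counts, 2 with the prefix block, 9 with prefix D alone and 0 to 418 with a library left out, 418 without WT water replicate 2. In Smad4 KO, 0 members stayed so, and 1 gene became 71 with DESeq2, 10 with all libraries in 1 model, 5 in that model without replicate 1, 3 at under 20% mitochondrial counts without replicate 1, 2 with the mitochondrial covariate, 19 with no filter and 1 to 3 with a library left out. For the difference of the responses, 0 members and 1 gene became 0 and 8 with DESeq2, 0 and 30 at under 20% mitochondrial counts, 3 and 776 there without replicate 1, 0 and 2 with no filter, and 0 and 1 to 5 with a library left out. The causes were not tested.

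Same-numbered replicates were compared as pairs, since the labels number them alike. Correlations of their deviations ran from -0.107 to 0.415 and were not all above 0.1, so the numbers were not taken to pair libraries. With the replicate block, 0 members were called in all 5 comparisons, and 473 genes on water, 57 after DSS, 54 in WT, 15 in Smad4 KO and 1 for the difference. Under the block, values near 0 changed sign for Sdf2l1 on water (0.032) and, in Smad4 KO, for Atf4 (0.17), Dnajb9 (0.059) and Sdf2l1 (0.046). The name prefix could not be fitted as a block for DSS against water in Smad4 KO.

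Other directions changed as follows. On water, Atf4 had 0.063 with the mitochondrial covariate and Sdf2l1 0.41 with the prefix block and -0.21 to 0.26 with a library left out. After DSS, Atf4 had -0.038 with the prefix block, -0.036 with prefix D alone and -0.036 to 0.29 with a library left out. In WT, Dnajb9 had -0.14 with the prefix block or prefix D alone, -0.18 with the mitochondrial covariate and -0.13 at under 20% mitochondrial counts, and Sdf2l1, 0.38 over all libraries, -0.11, -0.11 and, with the covariate, -0.0056. In Smad4 KO, Atf4 had 0.25 with the covariate, 0.16 at under 20% mitochondrial counts, 0.13 there without replicate 1 and -0.22 to 0.16 with a library left out, Atf6 -0.21 to 0.12, Dnajb9 0.094, 0.050 and -0.13 to 0.050 (covariate, under 20%, library left out), and Sdf2l1 0.045, 0.040, 0.17 without replicate 1 too, 0.020 in the model of 13 libraries and -0.17 to 0.095. For the difference, the prefix block gave Xbp1 -0.052 and Ern2 0.23, leaving out a library Xbp1 -0.024 to 0.18 and Ern2 -0.20 to 0.10, and the libraries under 20% mitochondrial counts Dnajb9 0.17, and without replicate 1 Dnajb9 0.089 and Sdf2l1 0.098, in place of -0.24 for Dnajb9 and -0.41 for Sdf2l1.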

Other observations

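Agr2, a disulfide isomerase of mucus-secreting cells, had 1409 ± 110 CPM (SD, n = 3) in WT and 1803 ± 412 CPM (SD, n = 3) in Smad4 KO after DSS, a log2 fold change of 0.36 (SE 0.16, edgeR adjusted p = 0.32), while goblet cell markers summed to lower levels in Smad4 KO in the same libraries. Creb3l1, a membrane-bound transcription factor of secretory cells, had lower mean levels after DSS than on water in both genotypes, with log2 fold changes of -0.39 (SE 0.15) in WT and -0.47 (SE 0.19) in Smad4 KO, neither called by edgeR.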
